A study of Citrullus lanatus with 4 samples.

Results

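Pectin-degrading enzymes were described in watermelon (Citrullus lanatus) through 9 genes, of which 6 are annotated as polygalacturonase (Cla000006, Cla000060, Cla000802, Cla001080, Cla001441 and Cla001988) and 3 as pectate lyase (Cla002573, Cla002742 and Cla002940). They were chosen by their annotation, from the 1999 annotated genes that were used here. The count table holds 23440 genes, of which 19732 had at least 1 count. All 9 genes were among these, and 8 of the 9 had 10 or more counts over all libraries.

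RNA-seq was performed on mature flowers and floral buds of a male sterile line and of its male fertile near-isogenic line, with 1 library for each of the 4 conditions. DAH3615-MS is the male sterile line, with the genotype msms, whose sterility goes back to a Chinese line carrying ms-1. DAH3615 is the male fertile line, heterozygous for the same locus (Msms). Plants of both genotypes segregated 1:1 in a backcross population and were grown together in a greenhouse, and the study describes the male sterile flowers as having defective stamens and no pollen. Flowers were taken on the first day of flowering. Floral buds were taken the day before flowering, from higher nodes of the plant than the flowers, and those of DAH3615-MS were shorter than those of DAH3615. Bud length and line therefore cannot be told apart in floral buds, and neither can node and organ. The sources used here do not state whether a library pooled several plants. Since whole organs were sequenced, fewer cells of a type and less RNA per cell cannot be told apart either.

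Pectin is a galacturonic acid-rich polysaccharide that glues plant cells together in the middle lamella and fills the primary wall. Polygalacturonases hydrolyse the homogalacturonan backbone of pectin, and pectate lyases cut the same backbone by elimination in a calcium-dependent reaction. Both families act mainly on pectin from which methyl groups have been removed, and in flowering plants both have members that are expressed in anthers and in pollen as well as members that act in growing organs, ripening fruit and abscission zones.

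The primers with which the study assayed polygalacturonase transcripts by qRT-PCR are shown because their UniProt entry is paired with Cla000006, the gene with the largest difference between the lines among the 9. Cla000006 was the 1 gene with this entry among the 1999 annotated genes used here, and the entry may also be paired with genes outside them. The study ran this assay on biological replicates of each condition and reported a difference between the lines in floral buds and in flowers. Both primers are 20 bases long, with a GC content of 50% for the forward primer and 55% for the reverse primer. The sequences are written 5′ to 3′.
Polygalacturonase forward primer: agcccaaacaccgatggaat
Polygalacturonase reverse primer: gtcctggtccgcaagttaca

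The 4 libraries held between 5239032 and 6315796 counts on genes. Values are given as CPM, which are counts scaled by the TMM factor of the library to a common library size, and 3 counts, the floor used for a gene at 0, were worth between 0.488 and 0.553 CPM. The line effect (DAH3615-MS over DAH3615) and the organ effect (flower over floral bud) were tested in an additive model of both factors with edgeR's quasi-likelihood test, and genes were called at a Benjamini-Hochberg false discovery rate of 0.01 over all 19732 genes. With 1 library per condition, no value has a replicate error. The residual of the model has 1 degree of freedom, namely how far the line effect varied with the organ, and p-values carry no spread between plants.

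Between the lines, 2 of the 9 genes were called and both were lower in DAH3615-MS, the polygalacturonase genes Cla000006 and Cla001080. Of all genes tested, 3.95% were called in either direction and 3.92% were called lower in DAH3615-MS. The other 4 polygalacturonase genes and the 3 pectate lyase genes were not called. The study also assayed a pectate lyase by qRT-PCR on biological replicates and reported a difference between the lines in both organs. The UniProt entry of that assay is paired with none of the 3 pectate lyase genes described here. The median log2 fold change of the 9 genes was -1.11, both as fitted and with Cla000006 set to its bound, against -0.0067 over all genes.

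Cla000006 lies at 6029352 to 6029806 on the plus strand of chromosome 0, the set of sequences without a determined chromosome in version 1 of the genome. Its annotation was taken from a Cucurbita pepo entry, and its span of 455 bp is the shortest of the 9 genes. Cla000006 had 0 counts in DAH3615-MS flowers and 0 in DAH3615-MS floral buds, against 1108 counts in DAH3615 flowers and 1262 in DAH3615 floral buds. Both libraries of the male sterile line were thus at 0, and those of the male fertile line were at 188 CPM in flowers and 231 CPM in floral buds. With each 0 set to the floor of 3 counts per library, Cla000006 was at least 339-fold lower in DAH3615-MS flowers and at least 472-fold lower in DAH3615-MS floral buds. Cla000006 was called by edgeR's quasi-likelihood test (adjusted p = 9.06e-06). With all libraries kept, it was also called in 7 of 9 alternatives, limma-voom among them (adjusted p = 2.22e-06). The 2 that did not call it at the same false discovery rate were DESeq2's Wald test (adjusted p = 0.0331) and a model of line alone.

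With 1 library left out, in a model of line alone, Cla000006 passed the quasi-likelihood test without the DAH3615 flower library (adjusted p = 8.25e-05) and without the DAH3615 floral bud library (adjusted p = 0.00128). It did not pass without the DAH3615-MS flower library (adjusted p = 0.0359) or the DAH3615-MS floral bud library (adjusted p = 0.0332), where 0 of all genes were called. The fitted log2 fold change was between -13.35 and -13.09 in these 4 fits. Within the organs, edgeR's exact test called Cla000006 between the 2 flower libraries (adjusted p = 1.14e-47) and between the 2 floral bud libraries (adjusted p = 4.84e-51). Each of these tests compares 2 libraries, not the lines. The flower and floral bud libraries of DAH3615 were close in this gene, with a ratio of flower over floral bud of 0.814 and a 95% exact counting interval of 0.750 to 0.883.

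Cla001080 lies at 14541803 to 14545406 on the plus strand of chromosome 3, spans 3604 bp and was annotated from a pear (Pyrus communis) entry. Cla001080 had 4 counts (0.737 CPM) in DAH3615-MS flowers and 12 counts (1.95 CPM) in DAH3615-MS floral buds, against 16 counts (2.71 CPM) in DAH3615 flowers and 357 counts (65.2 CPM) in DAH3615 floral buds. The floral bud of the male fertile line was the single condition with a high level, and both libraries of the male sterile line lay below both of the male fertile line. Cla001080 was 3.67-fold lower in DAH3615-MS flowers (95% exact counting interval 1.19 to 15.1) and 33.4-fold lower in DAH3615-MS floral buds (18.9 to 65.3). In the additive model the log2 fold change was -4.42 (SE 0.57, adjusted p = 0.00272 by edgeR's quasi-likelihood test).

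The fitted difference of Cla001080 was smallest without the DAH3615 floral bud library. In a model of line alone, the log2 fold change was then -0.99 (SE 1.21). With all libraries kept, Cla001080 was called in 7 of 9 alternatives, among them DESeq2's Wald test (adjusted p = 0.00116) and limma-voom (adjusted p = 0.000172). The 2 that did not call it were a newer variant of the quasi-likelihood test (adjusted p = 0.0246) and a model of line alone. With 1 library left out of a model of line alone, the log2 fold change of Cla001080 was -4.12 without the DAH3615-MS flower library. It was -5.48 without the DAH3615-MS floral bud library and -5.56 without the DAH3615 flower library. Each of these fits leaves 1 library in a line and mixes line with organ, so none can decide the call. edgeR's exact test called Cla001080 between the 2 floral bud libraries (adjusted p = 5.00e-20) and did not call it between the 2 flower libraries (adjusted p = 0.363).

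**Figure D1:**
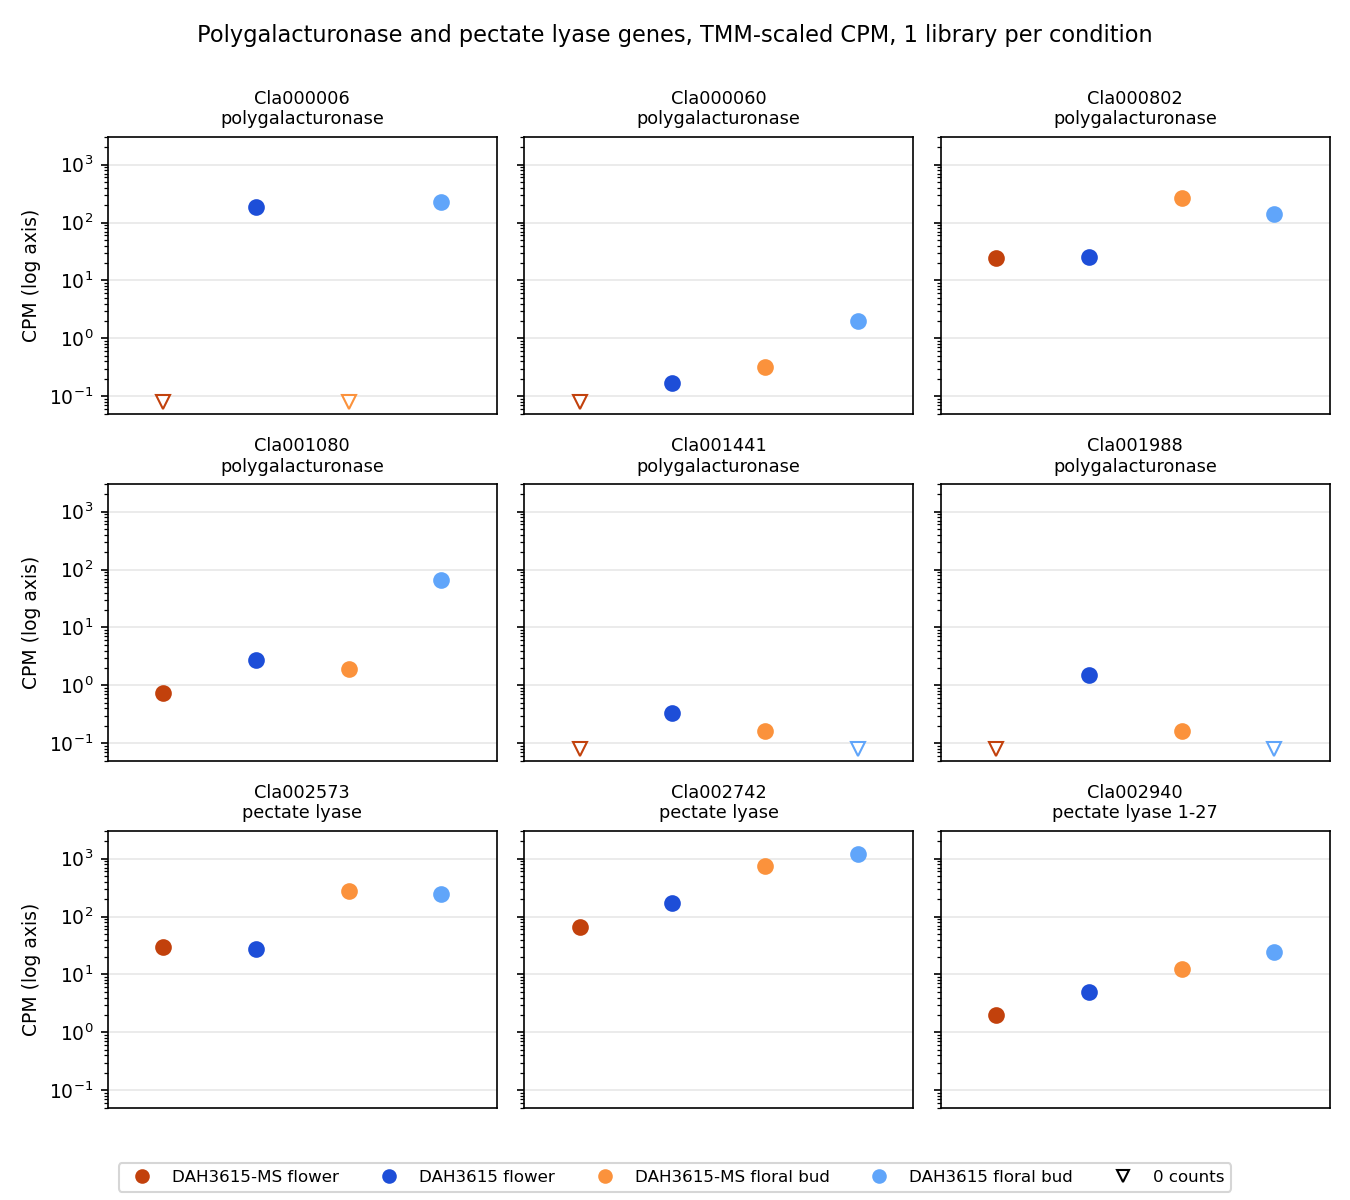
TMM-scaled CPM (log axis) of each of the 9 genes in the 4 libraries, 1 point per library, with open triangles at the foot for 0 counts. Cla000006 was at 0 in both DAH3615-MS libraries and at 188 and 231 CPM in flowers and floral buds of DAH3615, and Cla001080 was high only in floral buds of DAH3615, at 65.2 CPM.

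Non-overlap of the libraries was read from the same counts as the calls, so it adds no separate support for them. Both DAH3615-MS libraries lay below both DAH3615 libraries in CPM for 2 of the 9 genes, Cla000006 and Cla001080, and for 15.2% of all genes tested. Both DAH3615-MS libraries lay above both DAH3615 libraries for 0 of the 9 and for 11.7% of all genes.

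Within organs, edgeR's exact test called 2 of the 9 genes lower in DAH3615-MS flowers, Cla000006 and the pectate lyase gene Cla002742, where 4.85% of all genes were called and 4.72% were called lower. It called 2 of the 9 lower in DAH3615-MS floral buds, Cla000006 and Cla001080, where 5.04% of all genes were called and 4.88% were called lower. The 2 tests use different libraries, and whether their different second gene marks a difference between organs was tested as the line-by-organ difference given further on.

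Cla002742, on the plus strand of chromosome 7 at 535578 to 537433 with a span of 1856 bp, was the most abundant of the 9 genes per kb of span in 3 of the 4 libraries, DAH3615 flowers excepted. Cla002742 had 352 counts (64.9 CPM) in DAH3615-MS flowers and 4586 counts (746 CPM) in DAH3615-MS floral buds, against 1000 counts (169 CPM) in DAH3615 flowers and 6473 counts (1183 CPM) in DAH3615 floral buds. Each DAH3615-MS library was below the DAH3615 library of the same organ, while the lines overlapped across organs. The gene was 2.61-fold lower in DAH3615-MS flowers (95% exact counting interval 2.31 to 2.95) and 1.58-fold lower in DAH3615-MS floral buds (1.53 to 1.65).

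In the additive model Cla002742 had a log2 fold change of -1.01 between the lines (SE 0.24) and did not pass edgeR's quasi-likelihood test (adjusted p = 0.0528). The likelihood ratio test (adjusted p = 0.00480) and limma-voom (adjusted p = 0.00545) called it. The exact test called it between the 2 flower libraries (adjusted p = 0.00558) and not between the 2 floral bud libraries (adjusted p = 0.524), and scaling by library totals ended the flower call (adjusted p = 0.0212). That scaling raised the median log2 fold change between lines of all genes by 0.14, and no gene of the 9 changed direction between the lines with it in the additive model.

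The smallest of the pectate lyase genes in counts, Cla002940, described as pectate lyase 1-27, lies on the minus strand of chromosome 6 at 9119896 to 9123130. Cla002940 had 11 counts (2.03 CPM) in DAH3615-MS flowers and 75 counts (12.2 CPM) in DAH3615-MS floral buds, against 30 counts (5.08 CPM) in DAH3615 flowers and 134 counts (24.5 CPM) in DAH3615 floral buds. As in Cla002742, the male sterile library was the lower one in each organ, by 2.50-fold in flowers (95% exact counting interval 1.22 to 5.54) and by 2.01-fold in floral buds (1.50 to 2.70). The log2 fold change was -1.11 (SE 0.28) and did not pass the quasi-likelihood test of edgeR (adjusted p = 0.0764).

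The pectate lyase gene Cla002573, annotated from a cotton (Gossypium barbadense) entry, lies on the minus strand of chromosome 3 at 3537784 to 3539783, at a distance of 11.0 Mb from Cla001080. Cla002573 had 162 counts (29.9 CPM) in DAH3615-MS flowers and 1677 counts (273 CPM) in DAH3615-MS floral buds, against 163 counts (27.6 CPM) in DAH3615 flowers and 1347 counts (246 CPM) in DAH3615 floral buds. The ratio of DAH3615-MS over DAH3615 was 1.08 in flowers (95% exact counting interval 0.865 to 1.35) and 1.11 in floral buds (1.03 to 1.19). Its log2 fold change of 0.13 (SE 0.18) was not called (edgeR's quasi-likelihood test, adjusted p = 0.775).

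Cla000802 was the most abundant of the 6 polygalacturonase genes in the male sterile line. It lies on chromosome 0, minus strand, at 18913480 to 18917852, and was annotated from a melon (Cucumis melo) entry. Cla000802 had 132 counts (24.3 CPM) in DAH3615-MS flowers and 1616 counts (263 CPM) in DAH3615-MS floral buds, against 151 counts (25.6 CPM) in DAH3615 flowers and 773 counts (141 CPM) in DAH3615 floral buds. The ratio of DAH3615-MS over DAH3615 was 0.952 in flowers (95% exact counting interval 0.748 to 1.21) and 1.86 in floral buds (1.71 to 2.03). It was not called in the additive model (log2 fold change 0.46, SE 0.25, adjusted p = 0.442, edgeR's quasi-likelihood test) or by the exact test in floral buds (adjusted p = 0.121).

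The last 3 polygalacturonase genes were close to the floor. Cla000060, on chromosome 0 at 751119 to 754138, had 0 counts in DAH3615-MS flowers and 2 in DAH3615-MS floral buds, against 1 in DAH3615 flowers and 11 in DAH3615 floral buds. It was 6.17-fold lower in DAH3615-MS floral buds, with a wide 95% exact counting interval of 1.35 to 57.3, and its adjusted p between the lines was 0.355 by the quasi-likelihood test of edgeR. Cla001441 and Cla001988, both annotated from melon entries, lie 2.88 Mb apart on chromosome 9, at 23270635 to 23274617 and at 26156750 to 26159020.

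Cla001441 had 0 counts in DAH3615-MS flowers and 1 in DAH3615-MS floral buds, against 2 in DAH3615 flowers and 0 in DAH3615 floral buds. All of its libraries were under the floor, so no ratio is given. Cla001988 had 0 counts in DAH3615-MS flowers and 1 in DAH3615-MS floral buds, against 9 in DAH3615 flowers and 0 in DAH3615 floral buds. With the 0 set to the floor of 3 counts, Cla001988 was 2.76-fold lower in DAH3615-MS flowers. This value leaves out the counting error of the 9 counts, and edgeR's exact test did not call the difference (adjusted p = 0.147). A difference between the lines was not detectable at this depth for either gene (adjusted p = 0.906 for Cla001441 and 0.556 for Cla001988, edgeR's quasi-likelihood test).

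**Figure D2:**
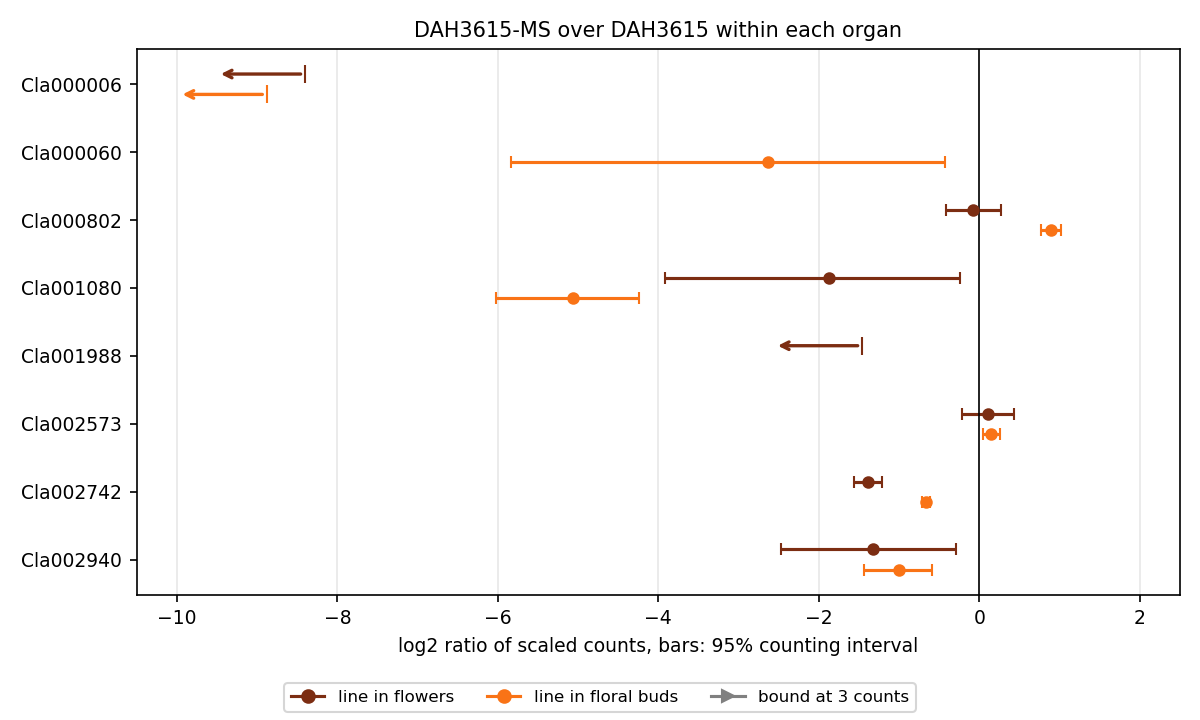
Ratio of DAH3615-MS over DAH3615 (log2 axis) within flowers and within floral buds for 8 genes, with 95% exact counting intervals as bars and arrows for bounds at a floor of 3 counts; Cla001441 and comparisons with both libraries at or under 3 counts have no value. Cla000006 lay farthest to the left in both organs, and Cla000802 in floral buds, at 1.86-fold, lay farthest to the right.

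The make-up of the counts on the 6 polygalacturonase genes differed between the libraries of the 2 lines. Summed over the 6 genes, the level was 25.1 CPM in DAH3615-MS flowers (95% exact Poisson interval 21.0 to 29.7) and 266 CPM in DAH3615-MS floral buds (253 to 279), against 218 CPM in DAH3615 flowers (206 to 230) and 439 CPM in DAH3615 floral buds (422 to 457). Cla000802 made up 97.1% of these counts in DAH3615-MS flowers (95% Wilson interval 92.7% to 98.9%) and 99.0% in DAH3615-MS floral buds (98.4% to 99.4%), against 11.7% in DAH3615 flowers (10.1% to 13.6%) and 32.2% in DAH3615 floral buds (30.3% to 34.1%). In the male sterile line, nearly all counts on these 6 genes thus came from 1 of them, and polygalacturonase genes outside the annotation used here were not analysed.

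Cla000006 made up 0 of 136 counts on these 6 genes in DAH3615-MS flowers (95% Wilson interval 0% to 2.75%). In DAH3615-MS floral buds it made up 0 of 1632 (0% to 0.235%). In DAH3615 it made up 86.1% in flowers (95% Wilson interval 84.1% to 87.9%) and 52.5% in floral buds (50.5% to 54.5%). Cla001080 made up 2.94% and 0.735% in flowers and floral buds of DAH3615-MS, and 1.24% and 14.9% in flowers and floral buds of DAH3615. These intervals cover counting error only, and counts of a longer gene weigh more in such a share.

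The pectate lyase genes summed to 96.8 CPM in DAH3615-MS flowers (95% exact Poisson interval 88.7 to 105) and 1032 CPM in DAH3615-MS floral buds (1006 to 1057), against 202 CPM in DAH3615 flowers (191 to 214) and 1454 CPM in DAH3615 floral buds (1422 to 1486). Cla002742 held most of the counts in every library, between 67.0% in DAH3615-MS flowers and 83.8% in DAH3615 flowers. Cla002573 held 30.9% and 26.5% of them in flowers and floral buds of DAH3615-MS, and 13.7% and 16.9% in flowers and floral buds of DAH3615.

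**Figure D3:**
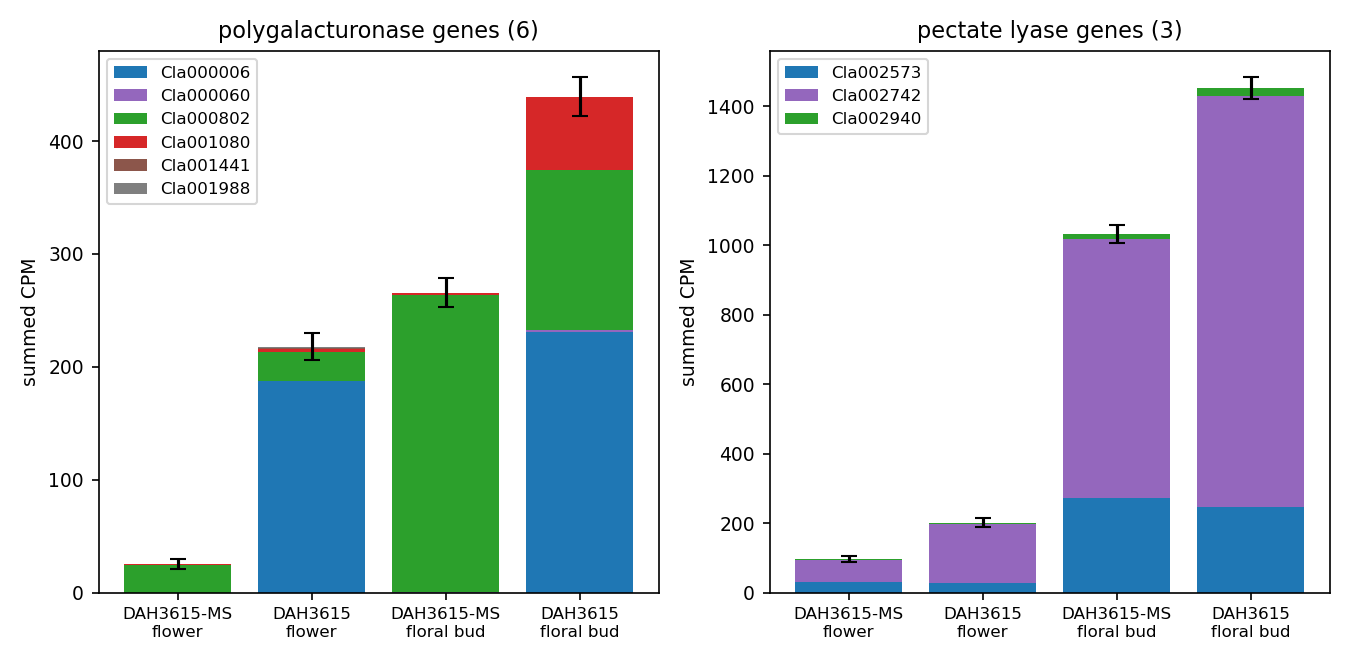
Summed CPM of the 6 polygalacturonase genes (left) and of the 3 pectate lyase genes (right) in each library, stacked by gene, with 95% exact Poisson intervals of the sums as bars. Cla000802 made up nearly the whole polygalacturonase column in DAH3615-MS, Cla000006 more than any other gene in DAH3615, and Cla002742 most of the pectate lyase column in every library.

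To compare genes with one another, CPM was divided by the length of the gene on the genome, introns included, so the per-kb values of genes with long introns are lower than per kb of transcript. On this scale Cla000006 was the highest of the 9 genes in DAH3615 flowers, at 412 CPM per kb, and stood at 507 CPM per kb in DAH3615 floral buds. Cla002742 came to 35.0 CPM per kb in DAH3615-MS flowers and 402 in DAH3615-MS floral buds, against 91.2 in DAH3615 flowers and 637 in DAH3615 floral buds. Cla002573 was at 14.9 and 136 CPM per kb in flowers and floral buds of DAH3615-MS, and at 13.8 and 123 in those of DAH3615.

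The order of the upper genes per kb of span was Cla002742, Cla002573 and Cla000802 in both DAH3615-MS libraries. In both DAH3615 libraries Cla000006 was placed within the upper pair with Cla002742. Cla000802 followed with 5.57 and 60.2 CPM per kb in flowers and floral buds of DAH3615-MS, and 5.85 and 32.3 in those of DAH3615. Cla001080 reached 18.1 CPM per kb in DAH3615 floral buds and was under 1 CPM per kb in each of the other libraries, as were Cla000060, Cla001441 and Cla001988 in every library. Cla001441 and Cla001988 had 2 counts or fewer in each library except DAH3615 flowers for Cla001988, so their order could not be read at this depth.

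By CPM, which is not scaled for length, Cla002742 ranked 3517 of 19732 genes in flowers of DAH3615-MS and 1329 in flowers of DAH3615. In floral buds it ranked 84 in DAH3615-MS and 45 in DAH3615. Cla000006 ranked 1166 in flowers and 793 in floral buds of DAH3615.

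Between the organs, 5 of the 9 genes were called and all 5 were lower in flowers, the polygalacturonase genes Cla000802 and Cla001080 and all 3 pectate lyase genes. Of all genes tested, 15.2% were called in either direction and 7.58% were called lower in flowers. The median log2 fold change of flower over floral bud was -2.95 in the 9 genes, against 0.0045 over all genes. In the additive model Cla002573 had a log2 fold change of -3.17 (SE 0.19, adjusted p = 0.000174), Cla002742 of -3.16 (SE 0.25, adjusted p = 0.000316) and Cla000802 of -2.95 (SE 0.27, adjusted p = 0.000425), all by edgeR's quasi-likelihood test.

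Within lines, Cla002742 was 11.5-fold lower in flowers of DAH3615-MS (95% exact counting interval 10.3 to 12.9) and 6.99-fold lower in flowers of DAH3615 (6.53 to 7.47). Cla002573 was 9.14-fold lower in flowers of DAH3615-MS (7.77 to 10.8) and 8.92-fold lower in flowers of DAH3615 (7.58 to 10.6). Cla000802 was 10.8-fold lower in flowers of DAH3615-MS (9.05 to 13.0) and 5.52-fold lower in flowers of DAH3615 (4.64 to 6.62). These 3 genes had both flower libraries below both floral bud libraries.

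Cla002940 was 6.02-fold lower in flowers of DAH3615-MS (95% exact counting interval 3.18 to 12.6) and 4.82-fold lower in flowers of DAH3615 (3.23 to 7.42), with a log2 fold change of -2.39 in the additive model (SE 0.29, adjusted p = 0.00125, quasi-likelihood test of edgeR). Cla001080 had the lowest fitted value of the 9, -4.03 (SE 0.56, adjusted p = 0.00221, same test), and its flower libraries did not both lie below its floral bud libraries. It was 24.1-fold lower in flowers of DAH3615 (14.6 to 42.6) and 2.65-fold lower in flowers of DAH3615-MS, where the interval of 0.803 to 11.3 includes 1. Without the DAH3615 floral bud library, in a model of organ alone, its log2 fold change was -0.17 (adjusted p = 0.938, quasi-likelihood test).

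Cla000006 was not called between the organs (log2 fold change -0.30, adjusted p = 0.449, edgeR's quasi-likelihood test), and neither were Cla000060 (-3.49, adjusted p = 0.0951), Cla001441 (0.80, adjusted p = 0.832) and Cla001988 (2.67, adjusted p = 0.332). Cla001988 had 9 counts in DAH3615 flowers and 0 in DAH3615 floral buds. With the 0 set to the floor of 3 counts it was 2.78-fold higher in flowers of that line. This value leaves out the counting error of the 9 counts, and edgeR's exact test did not call the difference (adjusted p = 0.0613). Both flower libraries lay below both floral bud libraries for 5 of the 9 genes, Cla000060, Cla000802, Cla002573, Cla002742 and Cla002940, and for 30.1% of all genes tested.

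edgeR's exact test between the organs called 4 of the 9 genes lower in DAH3615-MS flowers, Cla000802, Cla002573, Cla002742 and Cla002940, where 14.1% of all genes were called and 7.12% were called lower. In DAH3615 it called 5 of the 9 lower in flowers, Cla001080 and the same 4, where 11.1% of all genes were called and 5.15% were called lower. With the model fitted to organ alone, or with any 1 library left out of that model, the quasi-likelihood test called 0 of all genes tested between the organs, and so 0 of the 9. In these fits the log2 fold changes of the 5 genes called in the additive model were negative.

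**Figure D4:**
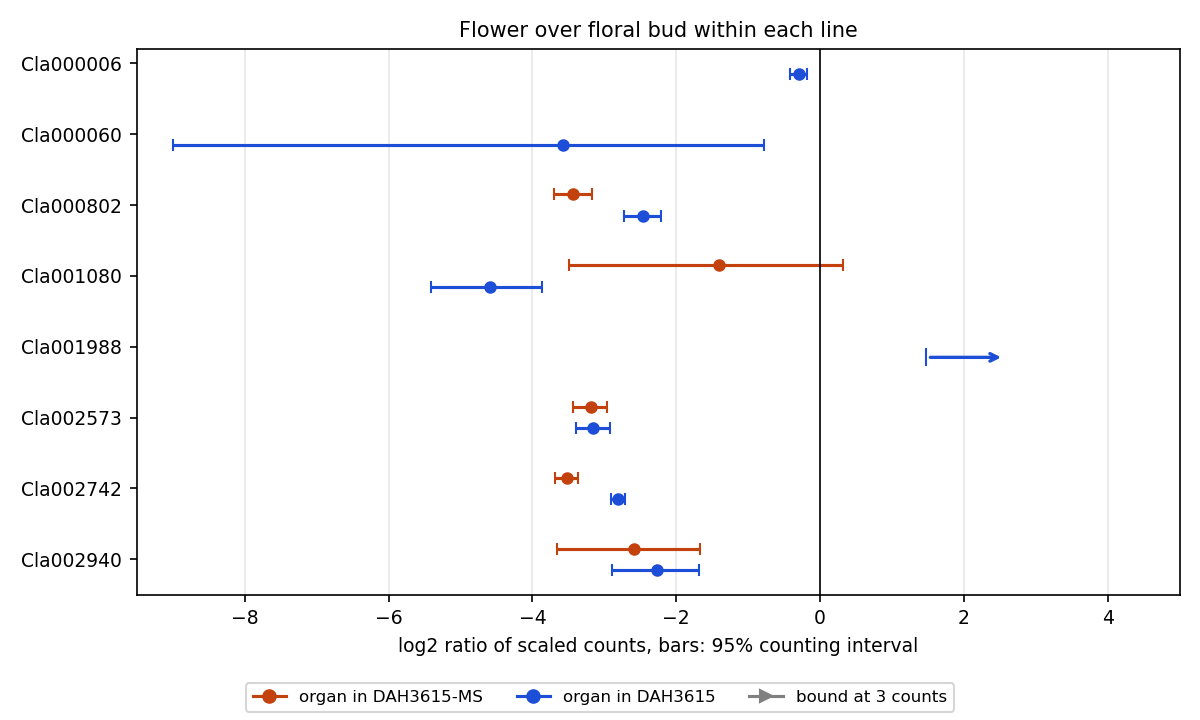
Ratio of flower over floral bud (log2 axis) within DAH3615-MS and within DAH3615 for 8 genes, with 95% exact counting intervals as bars and an arrow for a bound at a floor of 3 counts; Cla001441 and comparisons with both libraries at or under 3 counts have no value. The 3 pectate lyase genes and Cla000802 lay between 4.82-fold and 11.5-fold lower in flowers of both lines, Cla000006 in DAH3615 lay near 0, and Cla001080 was separated by line.

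Whether the line effect differed between the organs was tested with edgeR's likelihood ratio test of the line-by-organ term, at dispersions that come from the additive model of the same 4 libraries. It called 0 of the 9 genes at a false discovery rate of 0.01, and 0.466% of all genes. An unadjusted p under 0.05 was found for 2 of the 9, Cla001080 and Cla001988, and for 5.88% of all genes. For Cla001080 the log2 difference, flowers minus floral buds, was 3.20 (SE 1.16, unadjusted p = 0.00576, adjusted p = 0.312 by the likelihood ratio test of edgeR). Cla000802 (-0.97, SE 0.51, adjusted p = 0.884) and Cla002742 (-0.72, SE 0.52) were not called. The within-line and within-organ values given above share libraries with one another and with the additive model.

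Other pectin genes were taken from the same annotation, and 2 of 5 were called between the lines, both lower in DAH3615-MS. Of all genes tested, 3.95% were called in either direction and 3.92% were called lower. Cla001889, described as a pectinesterase, an enzyme that removes methyl groups from homogalacturonan, had 2 counts in DAH3615-MS flowers and 1 in DAH3615-MS floral buds, against 3618 in DAH3615 flowers and 2247 in DAH3615 floral buds. It was 1661-fold lower in DAH3615-MS flowers (95% exact counting interval 460 to 13725) and 2523-fold lower in DAH3615-MS floral buds (452 to 99685), with an adjusted p of 6.55e-06 by edgeR's quasi-likelihood test. Cla000817, a protein with a plant invertase and pectin methylesterase inhibitor domain, had 0 counts in both DAH3615-MS libraries, against 1406 in DAH3615 flowers and 949 in DAH3615 floral buds. It was at least 430-fold lower in DAH3615-MS flowers and at least 355-fold lower in DAH3615-MS floral buds (adjusted p = 9.06e-06, same test).

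The remaining 3 of these genes were not called between the lines. Cla000745, 1 of 2 genes described as polygalacturonase-inhibitor proteins, which are known to bind polygalacturonases of fungi, stood at 41.7 and 23.4 CPM in flowers and floral buds of DAH3615-MS and at 51.8 and 28.9 CPM in those of DAH3615 (adjusted p = 0.474, edgeR's quasi-likelihood test). The other, Cla000831, stood at 7.93 and 16.4 CPM in DAH3615-MS and at 4.74 and 23.9 CPM in DAH3615 (adjusted p = 0.994). Cla000606, a rhamnogalacturonate lyase-like gene of an enzyme family that cuts the rhamnogalacturonan backbone of pectin, stood at 0.737 and 9.28 CPM in DAH3615-MS and at 1.69 and 11.1 CPM in DAH3615 (adjusted p = 0.629).

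Between the organs, Cla000606 was the 1 called of these 5, lower in flowers (log2 fold change -3.06, SE 0.41, adjusted p = 0.00183, edgeR's quasi-likelihood test). Of all genes tested, 15.2% were called in either direction and 7.58% were called lower in flowers. The median log2 fold change of the 5 genes between the lines was -0.47, unchanged with Cla000817 at its bound.

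**Figure D5:**
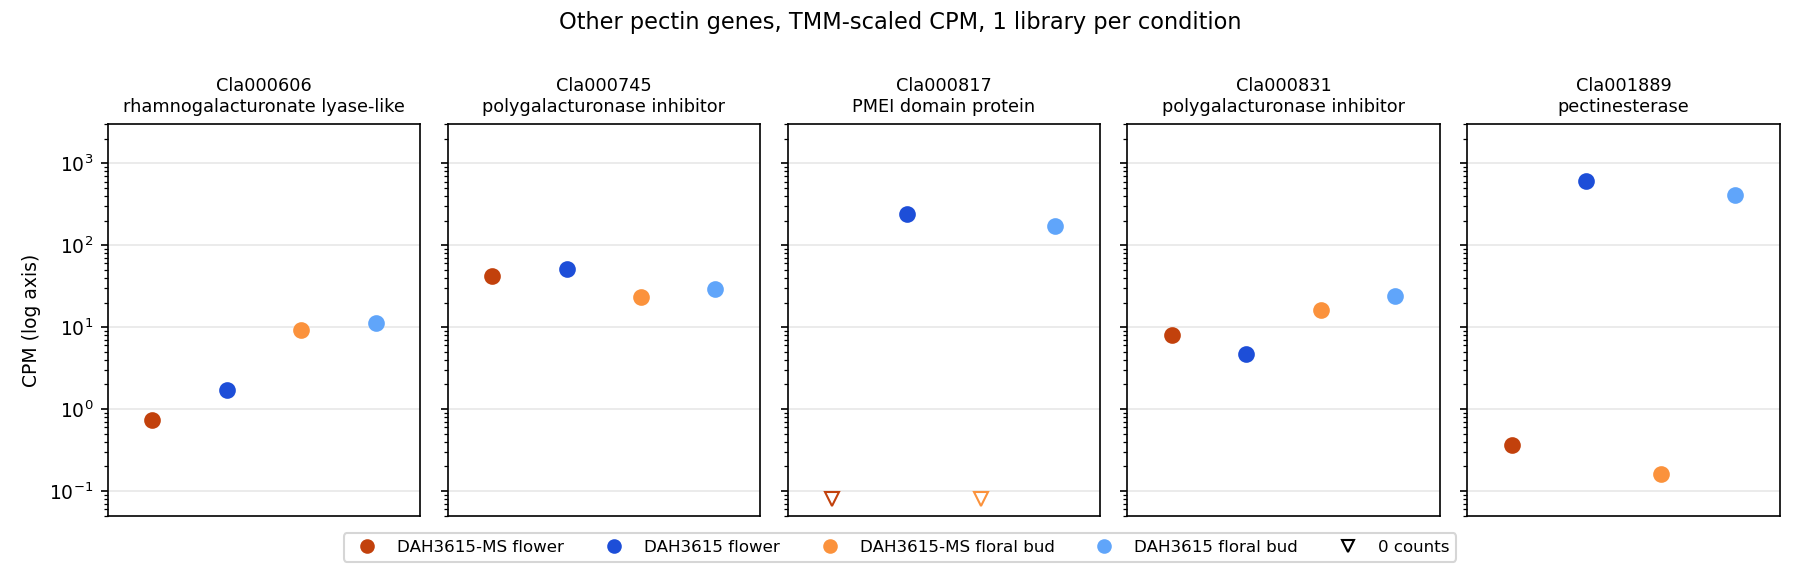
TMM-scaled CPM (log axis) of 5 other pectin genes in the 4 libraries, 1 point per library, with open triangles at the foot for 0 counts; PMEI stands for pectin methylesterase inhibitor. The pectinesterase Cla001889 and the inhibitor domain gene Cla000817 had 3 counts or fewer in each DAH3615-MS library, while the 2 polygalacturonase-inhibitor genes were between 4.74 and 51.8 CPM in all libraries.

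Genes of other enzymes that act on carbohydrates were set beside them, 3 xyloglucan endotransglucosylase/hydrolases and 2 beta-galactosidases. The descriptions do not say whether the beta-galactosidases act on pectin. By edgeR's quasi-likelihood test, 0 of these 5 genes were called between the lines or between the organs. An unadjusted p under 0.05 was found for 0 of the 5 between the lines, against 16.3% of all genes, and for 1, Cla002042, between the organs, against 39.3% of all genes. The xyloglucan gene Cla002042, the most abundant of them, stood at 35.2 and 25.2 CPM in flowers and floral buds of DAH3615-MS and at 33.7 and 19.7 CPM in those of DAH3615. The 2 beta-galactosidase genes were at 0 counts in every library but DAH3615 flowers, where Cla000150 had 1 count and Cla000746 had 5. The xyloglucan gene Cla000144 had 9 counts or fewer in every library, so depth limits these 3 genes.

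Of 6 genes described as pollen proteins and a LIM domain protein of a family with pollen members, 3 were called lower in DAH3615-MS (Cla001608, Cla002347 and Cla003043), 0 were called higher and 4 were not called. Of all genes tested, 3.92% were called lower. Among the 4 genes not called, Cla002155 had 12 and 45 counts in flowers and floral buds of DAH3615-MS, against 10 and 18 in those of DAH3615. The summed level of the 7 genes was 6.64 CPM in DAH3615-MS flowers and 25.9 CPM in DAH3615-MS floral buds. In DAH3615 it was 1567 CPM in flowers and 1275 CPM in floral buds. Most of the DAH3615 sums came from the LIM domain gene Cla001608 (1001 CPM in flowers, 689 in floral buds) and Cla002347 (528 and 369). Of the 7, Cla002397 was at 0 in both DAH3615-MS libraries and in DAH3615 flowers. The part of these 7 genes in the lower levels of Cla000006 and Cla001080 in DAH3615-MS was not tested.

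The LIM domain gene Cla001608 alone had 1 count in each DAH3615-MS library, against 5913 in DAH3615 flowers and 3772 in DAH3615 floral buds. Of other genes of flower and green tissue, 0 of 3 MADS-box genes and 0 of 3 photosynthesis genes were called between the lines by edgeR's quasi-likelihood test. Of all genes tested, 3.95% were called. An unadjusted p under 0.05 was found for 0 of each, against 16.3% of all genes. The MADS-box genes Cla002356 and Cla002628 had 16 counts or fewer in every library, so depth limits both. The MADS-box gene Cla000691, of a family that specifies floral organs, stood at 261 and 491 CPM in flowers and floral buds of DAH3615-MS and at 269 and 376 CPM in those of DAH3615. Between the organs, 1 of the 3 photosynthesis genes, the chlorophyll a-b binding protein gene Cla001764, was called higher in flowers. Of all genes tested, 15.2% were called in either direction.

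The genes most like Cla000006 over the 4 libraries, by the Euclidean distance of log2 CPM among 1631 described genes, were Cla000817 (distance 0.53) and Cla001631, described as pathogenesis-related protein 1 (distance 0.54). Cla001631 had 0 counts in both DAH3615-MS libraries, against 165 CPM in DAH3615 flowers and 162 CPM in DAH3615 floral buds. Nearest to Cla001080 were the cytochrome P450 gene Cla001029 (distance 2.11) and the self-incompatibility protein gene Cla002935 (distance 2.35). Genes at 0 in both DAH3615-MS libraries share the same log2 CPM there, so the distances for Cla000006 and Cla001080 cannot be compared. Cla001029 stood at 0.184 and 0.326 CPM in flowers and floral buds of DAH3615-MS and at 2.20 and 47.5 CPM in those of DAH3615.

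The genes next to Cla000006 and Cla001080 by position had few or no counts. Cla000006 lies on chromosome 0, the sequences without a determined chromosome, so its neighbours by position may not be its neighbours in the genome. Beside Cla000006, Cla000246 had 0 counts in all libraries, and Cla000693 stood at 1.47 and 0.488 CPM in flowers and floral buds of DAH3615-MS and at 1.69 and 0.914 CPM in those of DAH3615. Beside Cla001080, both Cla001079 and Cla001081 had 0 counts in all libraries. How far near-identical copies share reads was not examined, and neither were pectin genes outside the annotation used here.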

How the data were processed

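RNA-seq was performed on 1 library for each of 4 conditions. Trimmomatic was used by the authors to clean the read pairs, Bowtie2 within TopHat2 to align them to watermelon genome version 1, and HTSeq to obtain the deposited values, which are unnormalized whole-number counts per gene. The sources used here do not state whether counting used strand. All per-sample columns were used. Descriptions came from the first 1999 annotation rows of a supplementary table, whose p-values of the authors' own comparisons were not used.

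The 9 genes, the gene lists and the tests were chosen with earlier results of these data known. The genes named were the 9 genes, all genes of the lists, and, for each of the 9 called between lines, the 2 described genes of nearest profile (log2 CPM, prior count 2) and its neighbour on each side, taken by position on the chromosome.

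Genes with 0 counts in all libraries (3708) were left out and 19732 were tested across all genes with edgeR 4.0.16 under R 4.3.3, with TMM factors, an additive model of line and organ, the legacy quasi-likelihood test (prior degrees of freedom 6.43, biological coefficient of variation 0.174) and Benjamini-Hochberg adjustment at 0.01. Exact tests and the likelihood ratio test of the line-by-organ term used the trended dispersion of that model. Ratios of scaled counts have 95% Clopper-Pearson intervals, sums exact Poisson intervals and shares Wilson intervals, which cover counting error only. No molecular identifiers are named in the sources used here. The floor for a gene at 0 was 3 counts in every library, and the libraries held between 5239032 and 6315796 counts on genes. Bounds at this floor leave out the counting error of the other library. The quasi-likelihood script was tested on simulated data.

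Alternatives were the likelihood ratio test, library totals, RLE size factors, DESeq2 1.42.0, limma-voom (limma 3.58.1), a summed count of at least 10, a biological coefficient of variation fixed at 0.4, a threshold of 0.05, a model of the tested factor alone and the exclusion of each library. A newer variant of the quasi-likelihood test, and both alternatives of the line-by-organ term (0.4 and library totals), were added after seeing the data. Summaries used scipy 1.17.1, pandas 2.3.3 and numpy 2.4.6 under Python 3.11.15.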

Additional observations from a re-analysis of the deposited data

Results flagged for a closer look

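The polygalacturonase gene Cla000802 had ratios of DAH3615-MS over DAH3615 of opposite sign in the 2 organs. The log2 ratio was -0.071 in flowers (95% exact counting interval -0.42 to 0.28), from 132 counts in DAH3615-MS and 151 in DAH3615, and 0.90 in floral buds (0.77 to 1.02), from 1616 counts in DAH3615-MS and 773 in DAH3615. The interval in flowers includes 0. With library totals in place of TMM, edgeR's exact test gave a log2 fold change of 0.076 in flowers, so the sign depends on the scaling. The difference between the organs was tested with the line-by-organ likelihood ratio test of edgeR and was not called (adjusted p = 0.884). With 1 library per condition the difference has no replicate check.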

How the results depend on the processing

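With all libraries kept, the line effects of the 9 genes kept their direction in 80 of 80 alternative values, with 4 calls lost and 2 gained, and the organ effects in 80 of 80, with 6 calls lost and 1 gained. Genes called between lines numbered 2 with the chosen settings, 3 with the likelihood ratio test and with limma-voom, 1 with DESeq2, 1 with the newer quasi-likelihood test (added after seeing the data), 0 with line alone in the model and 2 otherwise. Genes called between organs numbered 5, 6 with the likelihood ratio test, 4 with the newer test, 0 with organ alone and 5 otherwise. The exact test called 1 in place of 2 between lines in flowers with the biological coefficient of variation fixed at 0.4 and 1 with library totals. At 0.4 it called 0 in place of 4 between organs in DAH3615-MS and 1 in place of 5 in DAH3615. With 1 library left out, in a model of the tested factor alone, between 0 and 2 were called between lines, and 0 of all genes between organs. Such a model mixes line with organ by construction. In these fits the line effect (log2) reached from -5.62 to 0.0039 for Cla000060, from -1.78 to 2.49 for Cla000802, from -3.14 to 2.29 for Cla001441, from -5.16 to 2.29 for Cla001988, from -2.20 to 2.46 for Cla002573, from -3.38 to 1.26 for Cla002742 and from -2.85 to 0.49 for Cla002940, each with a changed direction in at least 1 fit. The organ effect reached from -12.35 to 12.09 for Cla000006, from -2.27 to 3.15 for Cla001441 and from -2.27 to 5.17 for Cla001988. Over all genes, calls between lines numbered 780, and 1339 by the likelihood ratio test, 0 with line alone and between 0 and 405 with 1 library left out. Calls between organs numbered 2993, and 4933 by the likelihood ratio test, 919 at 0.4, 1411 with the newer quasi-likelihood test, 5549 at a threshold of 0.05 and 0 with organ alone. At 0.4 the exact test called 490 in place of 957 genes between lines in flowers and 534 in place of 994 in floral buds, and 143 in place of 2773 between organs in DAH3615-MS and 128 in place of 2199 in DAH3615. The line-by-organ test called 1 gene at 0.4 in place of 92, and 0 of the 9 in both alternatives, which were added after seeing the data. No paired analysis was possible because there is 1 library per condition and the labels carry no replicate numbers. Depth limits Cla000060, Cla001441 and Cla001988, which had 11 counts or fewer in every library.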
